A study of Mus musculus with 9 samples.

Results

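Motile cilia genes were read in whole mouse lung as a measure of ciliated airway cells. The list held 39 genes that build or switch on the motile cilium, and a member was measured by the probe sets (groups of short probes on the array) annotated with its symbol alone. Of the 39, 38 were on the array with 53 probe sets, out of 18193 genes in all; Sntn was not among them. Each gene was read from its brightest probe set, and 36 of the 38 were bright enough to be tested. Spag17 (mean log2 level 5.39) and Efhc2 (5.96) lay below the filter level of 6.13, and the dimmest member above it was Dnah5 (6.94).

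The right lungs came from C57/BL6 (BL6), FVB/N and SV129 mice kept for 4 weeks in hypobaric hypoxia at 50 kPa, or at 85 kPa for the normoxic mice. Each strain had 2 hypoxic arrays and 1 normoxic array, 9 in all, so no group at normal pressure had a replicate of its own. No transgene, allele or drug is named for any group, and age and sex are not given in the sources used here. The labels do not say whether arrays of a group stand for different mice, and the spread behind each p-value may be technical. Levels are log2(signal + 16) after quantile normalization, and a gene was called at a Benjamini-Hochberg adjusted p below 0.05 over 27022 probe sets.

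A motile cilium is a beating extension of the airway surface that sweeps mucus out of the lung. Its shaft is a ring of microtubule doublets around a central pair. Dynein arms on the doublets provide the force, radial spokes and the central apparatus pace it, and the nexin-dynein regulatory complex links neighbouring doublets. Foxj1 is the transcription factor that commits a cell to the motile programme, and the RFX factors bind the X-box in promoters of cilia genes. Parts made in the cell body are carried into the cilium by intraflagellar transport, which immotile primary cilia use as well.

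The promoters of Dynlrb2, Ccdc153 and Tekt1 are shown because the first pair had the clearest strain differences and Tekt1 has 2 matches close to its start. All 3 hold GTTGCC, which is a part of the X-box and not a whole one. Only this part was searched. The stretches are the 160 bases before the annotated start, written 5′ to 3′ on the gene's strand, from RefSeq on GRCm38.p6. Capitals mark GTTGCC or its reverse complement GGCAAC. Dynlrb2 lies at chr8:116504855-116505014 on the plus strand, Ccdc153 at chr9:44240517-44240676 on the plus strand, and the Tekt1 stretch, from the upstream of its 2 starts, at chr11:72361883-72362042 on the minus strand.
Dynlrb2: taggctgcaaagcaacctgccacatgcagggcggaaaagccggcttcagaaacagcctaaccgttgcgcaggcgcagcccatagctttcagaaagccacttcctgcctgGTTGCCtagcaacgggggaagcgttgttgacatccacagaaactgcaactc
Ccdc153: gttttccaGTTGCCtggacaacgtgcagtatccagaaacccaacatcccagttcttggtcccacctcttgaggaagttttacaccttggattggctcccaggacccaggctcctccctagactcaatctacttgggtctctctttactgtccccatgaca
Tekt1: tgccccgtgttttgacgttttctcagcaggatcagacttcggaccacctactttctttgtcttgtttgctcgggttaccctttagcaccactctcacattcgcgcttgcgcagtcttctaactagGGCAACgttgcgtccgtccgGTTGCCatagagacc
GTTGCC began 51 bases before the start in Dynlrb2 and 152 bases before it in Ccdc153. Of the listed members, 35 had a promoter in the table, with 42 starts. GTTGCC was searched on both strands in the 250 bases before each start, and 14 of the 35 genes (40%) held it, against 11.8% of 27025 genes. TGTTTAC, a forkhead motif of the kind Foxj1 binds, was found for 3 members (8.57%, Mlf1, Ak7 and Sntn) and for 3.54% of all genes. These matches describe letters in a window and are not measured binding sites.

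Before the results, 2 arrays stood apart. The kidney list, with 19 of 21 genes bright enough to be tested, had a mean log2 level of 11.96 on Hypoxic BL6 array 2 and 13.04 on Normoxic FVB/N array 1, and 6.25 to 6.94 on the other 7. A list of brown fat and skeletal muscle genes, 5 of 11 bright enough to be tested, had a mean of 11.30 on Normoxic FVB/N array 1 (6.36 to 8.12 elsewhere). The muscle genes Acta1, Ckm, Tnnt3 and Atp2a1 were at 13.13, 12.25, 11.40 and 11.17 there. The fat gene Adipoq was at 8.54 there, against 10.42 on Normoxic BL6 array 1, and Ucp1 and Cidea, of brown fat, were too dim to be tested. Lung markers were present on every array, with Sftpc, the surfactant protein of alveolar type 2 cells, at 14.61 to 14.95. None of 11 genes of sperm-forming cells, which also build an axoneme, was bright enough to be tested. Values below are from all 9 arrays unless stated. The members' strain order, calls and scores, and counts over the other cilia, secretory and type 2 cell lists, are also given without these 2 arrays, and the members' strain calls with the kidney level of each array as a covariate.

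The members as a group were highest in BL6, lowest in FVB/N and between them in SV129. A cilia score, the mean over the 36 members of the log2 level minus that gene's mean over the 9 arrays, was 0.49 on the normoxic BL6 array and 0.16 and 0.42 on hypoxic BL6 arrays 2 and 5. In SV129 it was 0.05 on the normoxic array and 0.03 and 0.02 on the hypoxic ones. In FVB/N it was -0.54 on the normoxic array and -0.52 and -0.10 on hypoxic arrays 2 and 6. The strains did not overlap: the mean was 0.36 ± 0.17 (SD, n = 3) in BL6, 0.03 ± 0.01 (n = 3) in SV129 and -0.39 ± 0.25 (n = 3) in FVB/N. In whole lung, fewer ciliated cells and less cilia RNA per cell cannot be told apart.

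**Figure D1:**
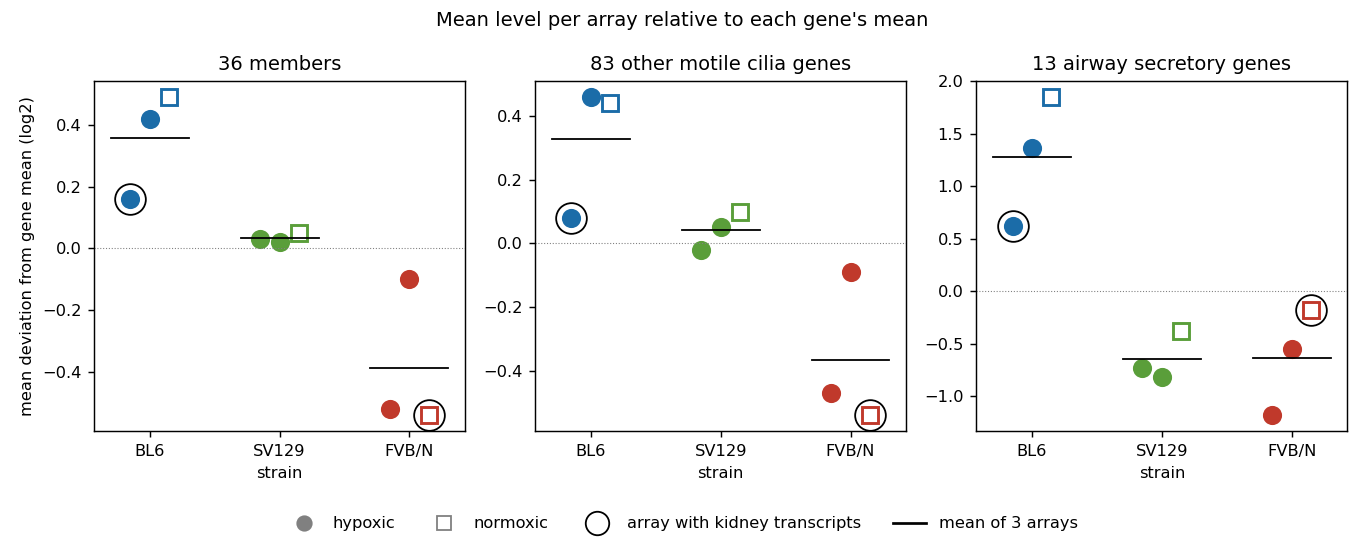
Mean deviation from each gene's mean (log2, vertical axis) by strain for the 36 members, 83 other motile cilia genes and 13 airway secretory genes; circles are hypoxic and squares normoxic arrays, rings mark the 2 arrays with kidney transcripts and bars are means of 3 arrays. The members run from 0.49 on the normoxic BL6 array to -0.54 on the normoxic FVB/N array with no overlap between strains, while the secretory genes separate BL6 from the other strains only.

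Taken one by one, most members had the same order at each pressure by itself, but not most had it at both. On the normoxic arrays 26 of 36 members ran BL6, then SV129, then FVB/N, against 22.9% of all probe sets. Over the hypoxic means 20 of 36 did so (13.8% of all), and 17 did so at both pressures (4.26% of all). The normoxic BL6 array was the highest of the 9 for 15 members and hypoxic BL6 array 5 for 9. At the other end, Normoxic FVB/N array 1 was the lowest for 19 members and Hypoxic FVB/N array 2 for 13.

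All 3 BL6 arrays lay above all 3 FVB/N arrays for 25 of 36 members (69.4%), against 8.37% of all probe sets, and no member showed the reverse (6.49% of all). All 3 SV129 arrays lay above all 3 FVB/N arrays for 15 members (10.7% of all), and the reverse held for Dnah8 alone (7.11% of all). BL6 lay above SV129 on every array for 7 members (10.2% of all), and no member had SV129 above BL6 throughout (11.5% of all). These shares are a description, since the list was chosen with strain results known.

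**Figure D2:**
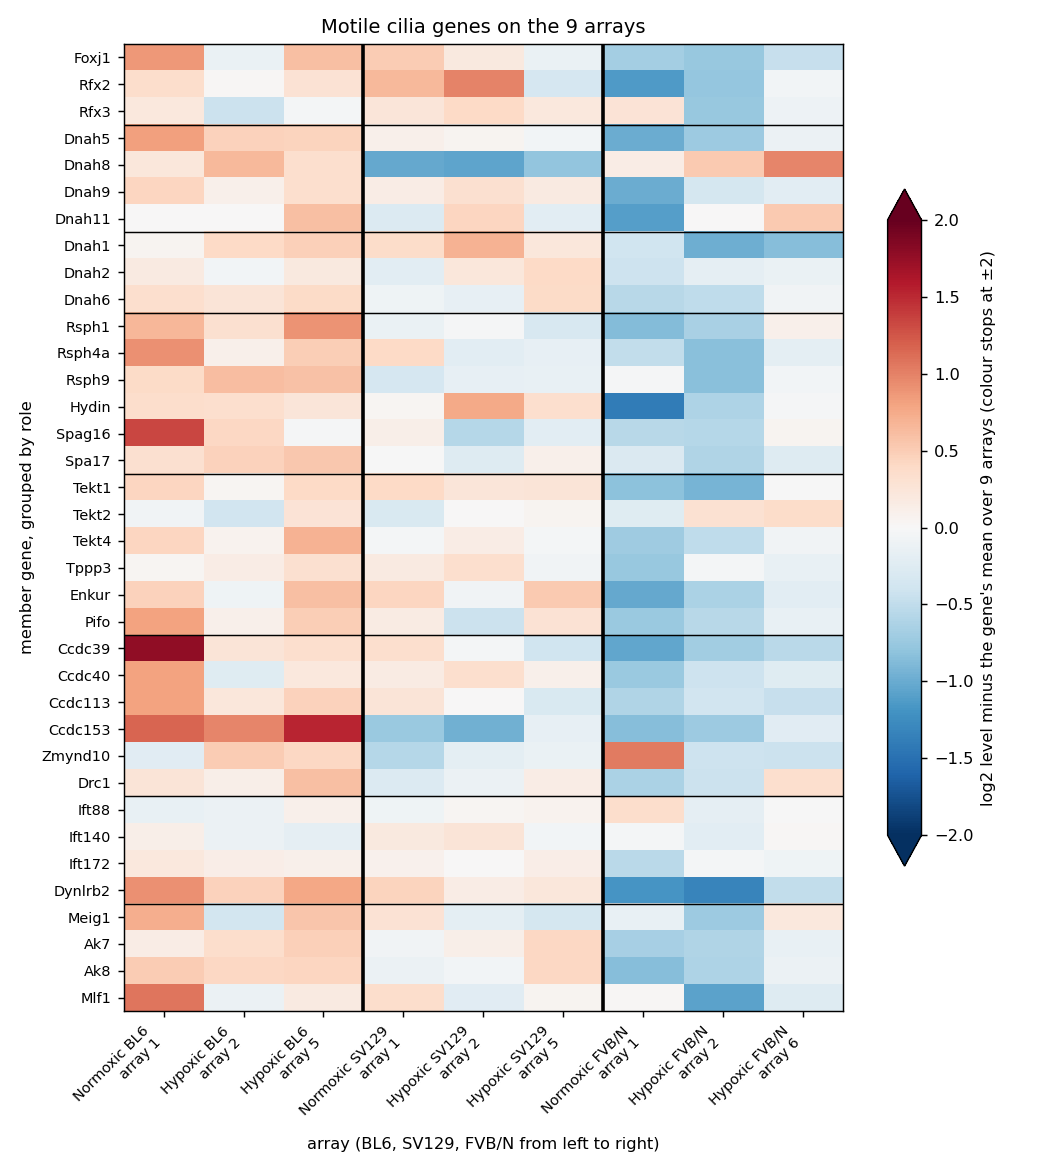
Log2 level of each of the 36 members minus its mean over the 9 arrays (colour, stopped at ±2), with genes in rows grouped by role and arrays in columns by strain. The BL6 columns are mostly red and the FVB/N columns mostly blue; Dnah8, Zmynd10, Tekt2, Rfx3, Ift88 and Ift140 break the pattern.

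Tested gene by gene over all 9 arrays with pressure in the model, 2 of 36 members were called higher in BL6 than in FVB/N by limma, Dynlrb2 and Ccdc153, against 2.07% of all probe sets in either direction and 1.52% higher in BL6. The log2 difference lay above 0 for 33 of 36, with a median of 0.83 against -0.01 for all probe sets, and 24 had an unadjusted p below 0.05 (66.7%, against 11.9% of all). A share this large was not particular to the members. It was 76.9% for the 13 airway secretory genes and 72.7% for the 11 alveolar type 2 cell genes described below. For the 33 genes of primary cilia and intraflagellar transport it was 18.2%, and for the 10 type 1 cell genes 0%. Against SV129, Ccdc153 and Dnah8 were called higher in BL6 (2.51% of all probe sets called, 1.35% higher in BL6), with 28 of 36 above 0 and a median of 0.30 against -0.03. An unadjusted p below 0.05 was reached by 7 in that comparison (19.4%), close to the 15.9% of all probe sets. Between FVB/N and SV129, 3 members were called (2.89% of all): Dnah8 was higher in FVB/N (1.06% of all), and Dynlrb2 and Dnah1 were lower (1.83% of all). There 31 of 36 lay below 0, with a median of -0.46 against -0.03, and 14 had an unadjusted p below 0.05 (38.9%, against 16.3% of all). The 3 strain comparisons share arrays and are not independent.

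**Figure D3:**
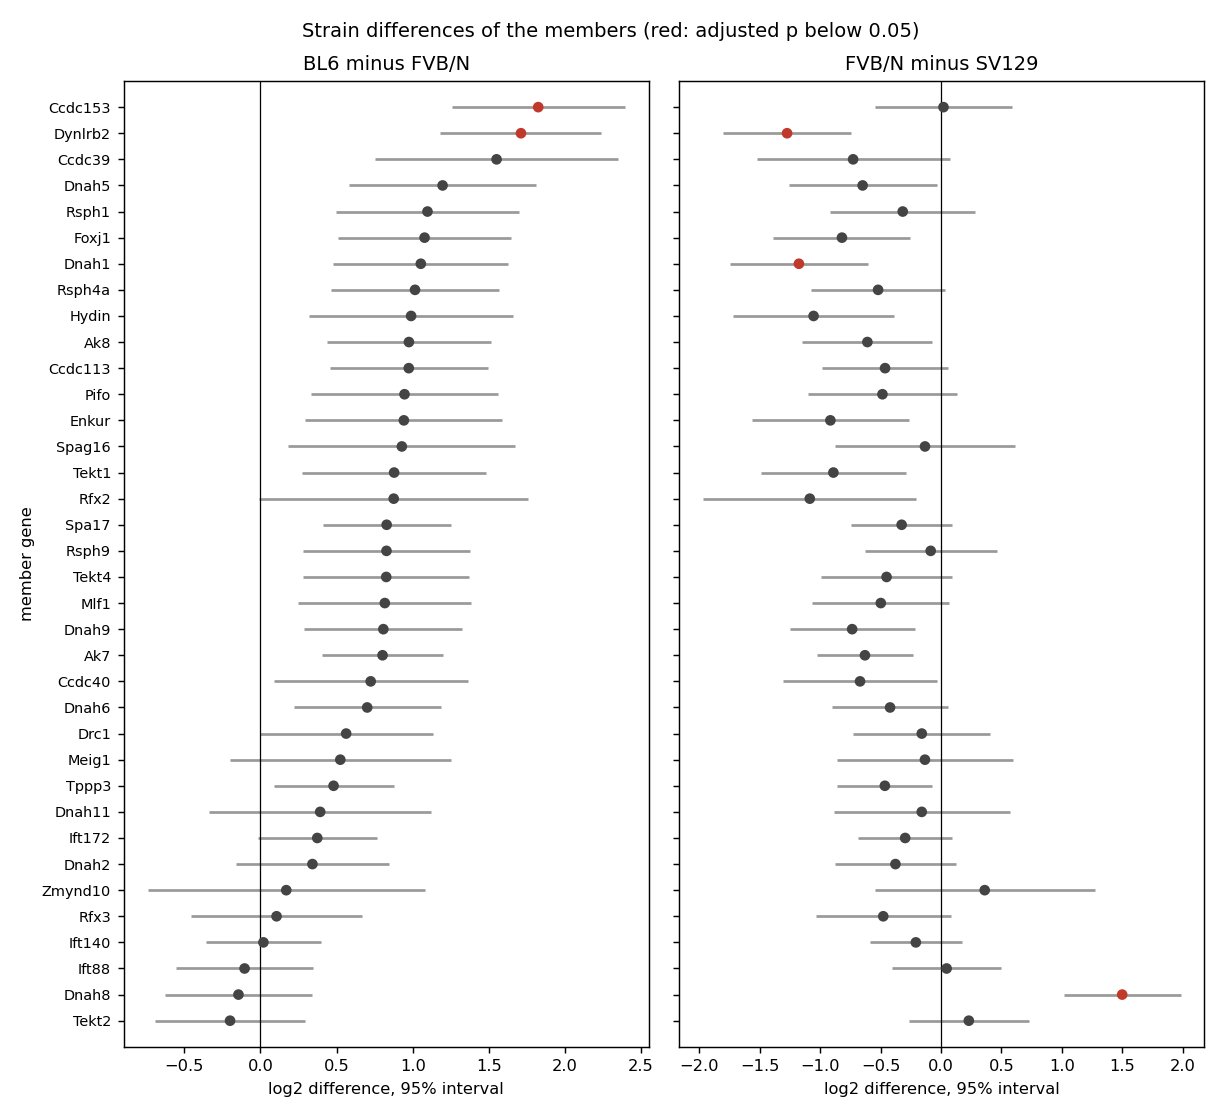
Log2 difference of each member (points, 95% intervals as lines) for BL6 minus FVB/N on the left and FVB/N minus SV129 on the right, in the order of the left panel; red points have an adjusted p below 0.05. On the left 33 of 36 points lie above 0, and on the right 31 of 36 lie below 0, with Dnah8 far to the right at 1.50.

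Among the transcription factors, Foxj1 was at 9.47 on the normoxic BL6 array and 8.46 and 9.20 on the hypoxic ones. In SV129 it was at 9.11 on the normoxic array and 8.79 and 8.46 on the hypoxic ones, and in FVB/N at 7.92, 7.84 and 8.13. Every FVB/N array thus lay below every other array, while BL6 and SV129 overlapped. The difference of BL6 over FVB/N was 1.08 ± 0.25 (SE; 2.11-fold) with a limma adjusted p of 0.0722, which missed the threshold. Rfx2, a partner of Foxj1 in airway ciliogenesis, differed by 0.88 ± 0.39 (adjusted p = 0.424), but its second probe set bright enough to be tested gave -0.30, so its probe sets disagreed. Rfx3, which also serves primary cilia, differed by 0.11 ± 0.25 (adjusted p = 0.929).

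The outer dynein arms drive the beat. Dnah5, a heavy chain found along the whole airway cilium, was at 7.77, 7.41 and 7.39 in BL6, 7.04, 7.00 and 6.89 in SV129, and 5.95, 6.21 and 6.82 in FVB/N, normoxic array first. The 3 strains did not overlap, and BL6 exceeded FVB/N by 1.20 ± 0.27 (2.29-fold, adjusted p = 0.0665). Dnah9, the heavy chain of the outer part of the cilium, differed by 0.81 ± 0.23 (adjusted p = 0.145) and Dnah11, that of the part near the base, by 0.39 ± 0.32 (adjusted p = 0.737).

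Dnah8 was the exception. It is an outer arm heavy chain best known from the sperm tail, and was at 8.31, 8.74 and 8.43 in BL6, 8.24, 8.61 and 9.06 in FVB/N, and only 7.07, 7.04 and 7.30 in SV129, normoxic array first. Every SV129 array was lower than every other array. FVB/N exceeded SV129 by 1.50 ± 0.21 (2.83-fold, adjusted p = 0.00711) and BL6 exceeded SV129 by 1.36 ± 0.21 (2.56-fold, adjusted p = 0.0122). The BL6 call was lost without Hypoxic BL6 array 2 (adjusted p = 0.0594), Hypoxic BL6 array 5 (0.0562), Hypoxic SV129 array 2 (0.0505) or Normoxic BL6 array 1 (0.0545). The FVB/N call held when any array was left out. Its second probe set was too dim to be tested.

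Of the inner arm heavy chains, Dnah1 was at 7.43, 7.76 and 7.29 in SV129, 7.11, 7.46 and 7.54 in BL6, and 6.66, 6.08 and 6.21 in FVB/N. FVB/N lay below both other strains on every array, by -1.18 ± 0.25 against SV129 (adjusted p = 0.0442). That call was lost without any one of Hypoxic BL6 arrays 2 (0.0699) and 5 (0.0906), Hypoxic FVB/N arrays 2 (0.129) and 6 (0.146), Hypoxic SV129 arrays 2 (0.145) and 5 (0.0769), Normoxic BL6 array 1 (0.0505) or Normoxic SV129 array 1 (0.159). Dnah2 and Dnah6 had all BL6 arrays above all FVB/N arrays as well, with no call.

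All 6 tested members of the radial spokes and central apparatus lay higher in BL6 than in FVB/N at an unadjusted p below 0.05, by 0.83 to 1.10, and none passed after adjustment. Rsph1, a spoke head protein, was at 9.58, 9.23 and 9.80 in BL6 and 8.04, 8.26 and 9.01 in FVB/N, a difference of 1.10 ± 0.27 (adjusted p = 0.0830). It was also above all SV129 arrays (8.78, 8.89 and 8.59). Hydin, a large protein of the central pair, had its lowest value, 5.57, on Normoxic FVB/N array 1, against 6.36 to 7.73 elsewhere.

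Among the proteins bound to microtubules, Tekt1, a tektin inside the doublets, was at 8.43, 8.04 and 8.41 in BL6, 8.41, 8.25 and 8.27 in SV129 and 7.18, 7.07 and 7.99 in FVB/N. FVB/N lay below the rest, by 0.88 ± 0.27 against BL6 (adjusted p = 0.175), while BL6 and SV129 overlapped. Tppp3, a tubulin-binding protein abundant in ciliated cells, differed by 0.48 ± 0.17 (adjusted p = 0.285). Tekt2 was at -0.20 ± 0.22 for the same difference, on the other side of 0.

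The ruler, regulatory complex and arm assembly proteins held the largest difference. Ccdc153, a subunit of the nexin-dynein regulatory complex, was at 11.00, 10.81 and 11.35 in BL6, 9.09, 8.87 and 9.66 in SV129 and 8.98, 9.10 and 9.60 in FVB/N, normoxic array first. All BL6 arrays stood more than 1 log2 unit above all others, and SV129 and FVB/N overlapped. BL6 exceeded FVB/N by 1.82 ± 0.25 (3.54-fold, adjusted p = 0.00608) and SV129 by 1.84 ± 0.25 (3.59-fold, adjusted p = 0.00646). FVB/N and SV129 differed by 0.02 ± 0.25 (adjusted p = 0.977). The call against SV129 was lost without Hypoxic BL6 array 5 (adjusted p = 0.0506). Ccdc39, which with Ccdc40 sets the spacing along the doublets, was at 9.15 on the normoxic BL6 array, far above its 7.63 and 7.71 on the hypoxic ones, and at 6.34 to 6.83 in FVB/N. Its difference of 1.55 ± 0.35 between these strains had an adjusted p of 0.0673.

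Dynlrb2, a dynein light chain grouped here with intraflagellar transport, was at 11.81, 11.36 and 11.67 in BL6, 11.34, 11.05 and 11.12 in SV129 and 9.71, 9.58 and 10.41 in FVB/N. The deposited signals ran from 2550.4 to 3507.8 in BL6 and from 750.1 to 1358.7 in FVB/N. The strains did not overlap. BL6 exceeded FVB/N by 1.71 ± 0.23 (3.27-fold, adjusted p = 0.00576), a call that held with every array left out in turn. FVB/N was lower than SV129 by -1.27 ± 0.23 (adjusted p = 0.0226). The second call was lost without Hypoxic BL6 array 5 (adjusted p = 0.0549), Hypoxic FVB/N array 2 (0.0843), Hypoxic SV129 array 2 (0.0692) or 5 (0.0716) or Normoxic SV129 array 1 (0.131). The transport particles themselves, shared with primary cilia, differed less: Ift88 by -0.10 ± 0.20, Ift140 by 0.02 ± 0.17 and Ift172 by 0.37 ± 0.17 for BL6 minus FVB/N, with adjusted p of 0.910, 0.982 and 0.448.

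**Figure D4:**
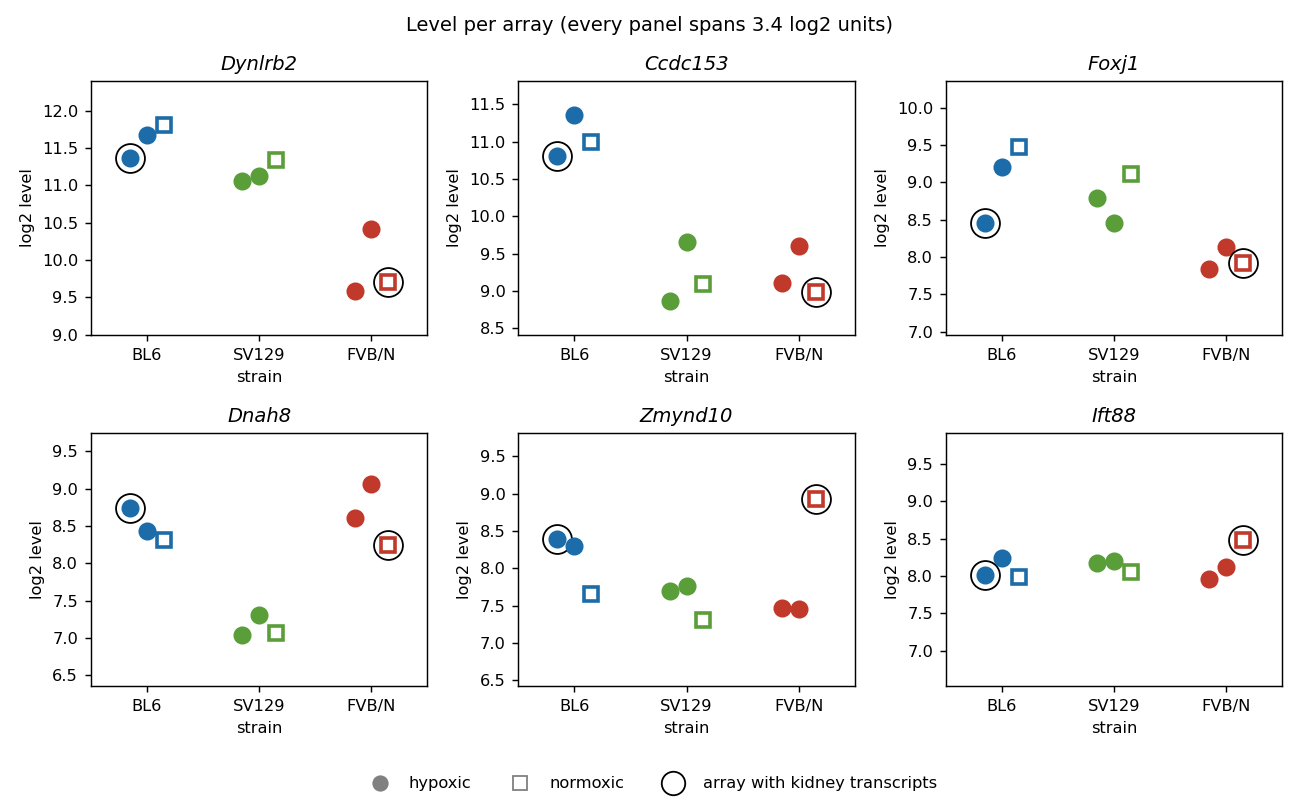
Log2 level of Dynlrb2, Ccdc153, Foxj1, Dnah8, Zmynd10 and Ift88 on each array by strain (filled circles hypoxic, open squares normoxic, rings for the 2 arrays with kidney transcripts); each panel spans 3.4 log2 units. Dynlrb2 is low in FVB/N, Ccdc153 is high in BL6, Dnah8 is low in SV129 and Zmynd10 peaks at 8.93 on the normoxic FVB/N array.

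The order of the strains was also present without the 2 arrays with kidney transcripts. Without both, BL6 lay above FVB/N on every array for 29 of 36 members (20.6% of all probe sets), BL6 above SV129 for 18 (13.2%) and SV129 above FVB/N for 17 (16.4%). The scores on those 7 arrays were 0.44 and 0.37 in BL6, -0.01, -0.03 and -0.04 in SV129, and -0.58 and -0.15 in FVB/N. On the 6 hypoxic arrays alone the counts were 27 (22.4%), 12 (21.8%) and 21 (21%). Called members numbered 2 for BL6 against FVB/N (1.2% of all probe sets), 2 for BL6 against SV129 (2.06%) and 2 for FVB/N against SV129 (2.15%) without both arrays. Over FVB/N, Ccdc153 then differed by 1.95 and Dynlrb2 by 1.63 in BL6, and over SV129, Ccdc153 by 2.01 and Dnah8 by 1.25. Between FVB/N and SV129 Dnah8 stood at 1.67 and Dnah1 at -1.44, while Dynlrb2 lost its call (-1.11, adjusted p = 0.0721). Leaving out Hypoxic BL6 array 2 alone also brought BL6 above SV129 to 18 members. Leaving out Hypoxic SV129 array 5 or Normoxic SV129 array 1 brought the count to 12 and 11. The share of all probe sets is not given for these counts with 1 array left out. That share was 10.2% over all arrays and 13.2% without both arrays with kidney transcripts, so it can rise when arrays are dropped. The rise from 7 members with 1 array left out thus cannot be set against a background. With the kidney level of each array as a covariate 14 members were called between BL6 and FVB/N (3.92% of all probe sets), and with limma array weights also 14 (8.14%), all higher in BL6. Without Hypoxic FVB/N array 6, 6 were (1.52%).

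The hypoxic arrays of a strain also differed among themselves. Hypoxic FVB/N array 6 was higher than array 2 for 32 of 36 members (median 0.45), and Hypoxic BL6 array 5 was higher than array 2, the one with kidney transcripts, for 28 (median 0.24). In SV129 the count was 20 (median 0.03). Within FVB/N the hypoxic scores of -0.52 and -0.10 thus lay about as far apart as the means of FVB/N and SV129 (-0.39 and 0.03).

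No change of the members with chronic hypoxia was called. None of the 36 passed the threshold in limma over the 3 strains together, against 3.76% of all probe sets called, and 2 had an unadjusted p below 0.05 (5.56%, against 22.2% of all). The differences lay above 0 for 18 members and below 0 for 18, with a median of 0.02 against 0.04 for all probe sets. That is an average over strains: most members lay below 0 in BL6 and above 0 in FVB/N, as given below. The score averaged 0.00 ± 0.31 (SD, n = 6) on hypoxic and 0.00 ± 0.52 (n = 3) on normoxic arrays. No member had all 6 hypoxic arrays above (6.53% of all) or below (4.12% of all) all 3 normoxic ones. Leaving out 1 array at a time moved the difference in score to between -0.11 and 0.11. Without both arrays with kidney transcripts it was -0.04, and no member was called (0.844% of all probe sets).

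The smallest p belonged to Mlf1, a gene used as a marker of ciliated cells. It was at 9.56, 8.50 and 8.83 on the normoxic BL6, FVB/N and SV129 arrays, and on the hypoxic ones at 8.36 and 8.66, 7.41 and 8.22, and 8.26 and 8.54. Every hypoxic array lay below the normoxic array of its strain, as for 8.77% of all probe sets, but the ranges over strains overlapped. The difference was -0.72 ± 0.22, with an adjusted p of 0.0989. Dnah11 lay on the other side, at 0.68 ± 0.28 (adjusted p = 0.197), and its value of 6.27 on Normoxic FVB/N array 1 was the lowest of the 9, against 7.09 to 7.97. Next came Hydin (0.51 ± 0.26), Ak7, an adenylate kinase of the axoneme (0.30 ± 0.15), and Rsph4a, a spoke head protein (-0.41 ± 0.21), with adjusted p from 0.282 to 0.295.

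The 95% interval of the hypoxia difference ran from -0.84 to 0.14 for Foxj1, from -0.50 to 0.57 for Dnah5, from -0.52 to 0.52 for Tekt1 and from -0.08 to 0.61 for Tppp3. For Ift88 it ran from -0.44 to 0.34 and for Ift172 from -0.22 to 0.46. All 6 intervals included 0, and changes of any size within them were not excluded.

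**Figure D5:**
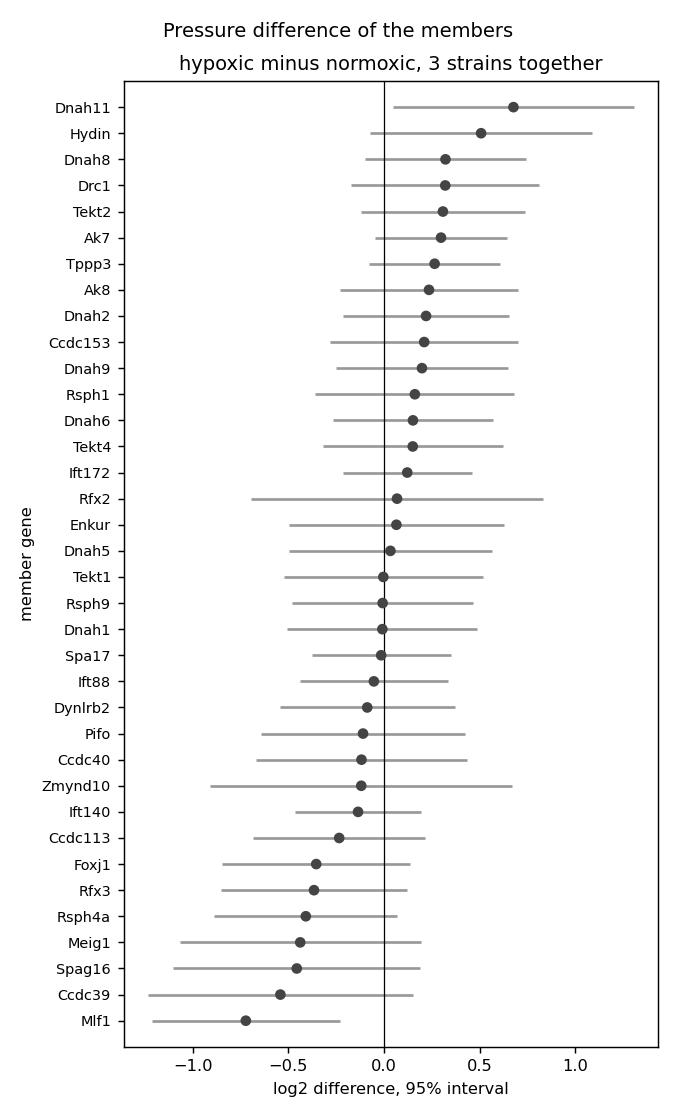
Log2 difference, hypoxic minus normoxic over 3 strains, for each of the 36 members (points) with 95% intervals (lines), sorted by size. The points spread evenly to either side of 0, from 0.68 for Dnah11 to -0.72 for Mlf1, and none has an adjusted p below 0.05.

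Within strains, each comparison set 2 hypoxic arrays against 1 normoxic array. In BL6 no member was called (0.0148% of all probe sets were) and 5 had an unadjusted p below 0.05; the smallest was Ccdc39 at -1.48 ± 0.32 (adjusted p = 0.139). In SV129 none was called (0% of all), and none had an unadjusted p below 0.05. In FVB/N 1 of 36 was called (6.8% of all, 3.85% lower in hypoxia): Zmynd10, an assembly factor for dynein arms, was at 8.93 on the normoxic array and 7.47 and 7.46 on the hypoxic ones, a fall of -1.47 ± 0.28 (adjusted p = 0.0320). That normoxic array is the one with kidney and muscle transcripts, and its Zmynd10 level was the highest of all 9, the next being 8.40 on the other array with kidney transcripts and 8.30 on Hypoxic BL6 array 5. Their part in the difference was not tested. The call was lost without Hypoxic FVB/N array 2 (adjusted p = 0.149) or 6 (0.143). Directions differed between strains, each resting on 1 normoxic array. Kidney transcripts lay on a hypoxic array in BL6 (array 2) and on the normoxic array in FVB/N, and the counts below include both. Without both, the BL6 score was 0.37 on the hypoxic array and 0.44 on the normoxic one, and FVB/N had no normoxic array left. In BL6 12 of 36 members lay above 0 and 24 below (median -0.10, against 0.02 for all probe sets). In FVB/N 26 lay above 0 (72.2%, against 60.6% of all), with a median of 0.36 against 0.17. In SV129 18 did (median 0.02, against 0.01). The effect in FVB/N minus that in BL6 lay above 0 for 30 (83.3%, against 62.1% of all), with a median of 0.56 against 0.21. No member was called for a difference between strains in the effect of hypoxia by limma's F test (0% of all), and 2 had an unadjusted p below 0.05; Zmynd10 had the smallest p (adjusted 0.213), then Ccdc39 (0.258).

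Most members varied together over the 9 arrays. The points share strain and array, so the values are a description. The correlation of a member with the mean of the others had a median of 0.79, and 23 of 36 reached 0.7. Dnah5 (0.97), Dynlrb2 (0.96) and Tekt4 (0.96) were the closest to the others. The 6 members below 0.5 were Ift88 (-0.32), Zmynd10 (-0.17), Dnah8 (-0.14), Tekt2 (-0.09), Ift140 (0.23) and Rfx3 (0.24). Without the 2 arrays lowest in score, Dnah5 kept 0.93 and Dynlrb2 0.88, while Rfx2 dropped from 0.69 to 0.05 and Hydin from 0.76 to 0.12.

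Outside the list, the 5 genes most like the cilia score over the 9 arrays were Riiad1 (r = 0.986), Lrrc23 (0.982), a radial spoke protein, Gsto1 (0.969), a glutathione transferase, Cxcl17 (0.962), a chemokine of mucosal surfaces, and Zbtb32 (0.962), a zinc finger repressor. Riiad1 and Lrrc23 belong to the list of other motile cilia genes. Gsto1 was at 12.62, 11.93 and 12.27 in BL6, 11.71, 11.41 and 11.36 in SV129 and 10.46, 10.64 and 10.94 in FVB/N, with no overlap. Of 83 other motile cilia genes 46 (55.4%) had a correlation of 0.7 or more, against 5.07% of 12859 genes.

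The other motile cilia genes, 83 tested of 98 on the array, were ordered like the members. Between BL6 and FVB/N 80 of 83 lay above 0 and the median was 0.68. Of these genes 5 were called, all higher in BL6, against 1.52% of all probe sets. They were Cfap52 (1.81 ± 0.26, adjusted p = 0.00675), Cdhr4 (1.33 ± 0.20, 0.00947), Cfap70 (1.44 ± 0.24, 0.0139), Myb, a transcription factor acting early in ciliated cell formation (1.10 ± 0.18, 0.0154), and Spata17 (1.27 ± 0.26, 0.0421). Without both arrays with kidney transcripts 3 of 84 were called, and with any array left out in turn 0 to 7, the 0 being without Hypoxic BL6 array 5 and the 1 without Hypoxic FVB/N array 2 or Normoxic BL6 array 1. Cfap52 (-1.42 ± 0.26, adjusted p = 0.0210) and Myb (-0.96 ± 0.18, 0.0256) were also called lower in FVB/N than in SV129; without Hypoxic FVB/N array 2, Hypoxic SV129 array 5 or Normoxic SV129 array 1 no gene of the list was called lower there, and without Hypoxic BL6 array 5, Hypoxic SV129 array 2 or Normoxic FVB/N array 1 it was 1. Efcab2, a regulatory complex protein, was called lower in SV129 than in BL6 (1.59 ± 0.30 for BL6 minus SV129, adjusted p = 0.0252) and than in FVB/N (1.39 ± 0.30 for FVB/N minus SV129, adjusted p = 0.0417), as Dnah8 was. The call for FVB/N minus SV129 was lost with any array left out. The call for BL6 minus SV129 was lost without Hypoxic BL6 array 2 or 5, Hypoxic SV129 array 5, Normoxic BL6 array 1 or Normoxic SV129 array 1. For hypoxia over the 3 strains together none of the 83 was called, with 42 above 0, nor was any without both arrays with kidney transcripts; the smallest p were those of Kif6 (0.73 ± 0.23, adjusted p = 0.105) and Lrrc6 (-0.88 ± 0.28, adjusted p = 0.108). Without Normoxic FVB/N array 1 alone, Lrrc6 was called lower (-1.28 ± 0.27, adjusted p = 0.0357). Within FVB/N, where that array is the only normoxic one, Spef2 (2.04 ± 0.43) and Ttc29 (1.48 ± 0.29) were higher in hypoxia. There 55 of 83 lay above 0 (66.3%, against 60.6% of all probe sets). In BL6 27 of 83 did, and in SV129 37.

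Genes of primary cilia and intraflagellar transport, 33 of 33 tested, had a median of 0.19 between BL6 and FVB/N with 26 above 0. By limma 1 was called, against 2.07% of all probe sets: Ift27, a subunit of the transport particle (1.16 ± 0.21, adjusted p = 0.0221). None was called without Hypoxic BL6 array 2 or 5, Hypoxic FVB/N array 2 or 6 or Normoxic BL6 array 1, nor without both arrays with kidney transcripts, and 3 were without Normoxic FVB/N array 1. Their mean level was 8.96, 8.87 and 8.96 in BL6, 8.85, 8.91 and 9.01 in SV129 and 8.69, 8.76 and 8.68 in FVB/N, normoxic array first. All FVB/N arrays thus lay below the rest, while BL6 and SV129 overlapped. Between FVB/N and SV129 25 of 33 lay below 0 (median -0.24) with no call, and without both arrays 1 was called lower.

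Airway secretory genes as a list were also high in BL6, where the members were highest, but the differences were uneven in size. The median was 0.69 over FVB/N, with the largest at 5.32, and 0.70 over SV129, with the largest at 6.08. Scgb3a2 was at 14.37 to 14.43 in BL6 and 14.01 to 14.33 elsewhere. Cyp2f2 was at 14.56 to 14.68 in BL6 and 14.10 to 14.62 elsewhere. Of 13 tested, 5 were called higher in BL6 than in FVB/N (1.52% of all probe sets) and 6 higher than in SV129 (1.35%). None was called between FVB/N and SV129 (2.89% of all), where the smallest limma adjusted p was 0.199, for Hp. Without Hypoxic BL6 array 2, 1 was called lower in FVB/N. Bpifa1, a secreted airway protein, was at 13.76 on the normoxic BL6 array and 7.89 and 11.44 on the hypoxic ones, and at 4.74 to 6.97 elsewhere, a difference over FVB/N of 5.32 ± 0.93 (adjusted p = 0.0195). Muc5b, an airway mucin, was 2.64 ± 0.33 higher in BL6 than in FVB/N (adjusted p = 0.00373), and was the one secretory gene called for hypoxia over the 3 strains in the additive model, where it was lower (-1.43 ± 0.29, adjusted p = 0.0340). In the 6-group model 3 were called lower for the mean of the strain effects. Within FVB/N, set against the normoxic array with kidney transcripts, Ltf (-2.56 ± 0.52) and Cldn10 (-3.28 ± 0.45) were lower in hypoxia. Aldh1a1 (0.68 ± 0.13) and Hp (0.72 ± 0.13) were higher there, and of the 13 genes 6 lay above 0 and 7 below. With 1 array left out, 1 secretory gene was still called in the additive model without Hypoxic SV129 array 2 or 5, and none without any other array. The mean level of the list was 12.51, 11.28 and 12.02 in BL6, 10.28, 9.93 and 9.84 in SV129 and 10.48, 9.48 and 10.11 in FVB/N. Without both arrays with kidney transcripts 6 were called higher in BL6 than in FVB/N, 6 higher than in SV129 and none for hypoxia. Without Hypoxic BL6 array 5 the strain calls fell to 3 and 1 of 12, without Normoxic BL6 array 1 to 3 and 2 of 12, and without Hypoxic FVB/N array 2 to 3 against FVB/N; without Hypoxic SV129 array 2 or Normoxic SV129 array 1 those against SV129 were 4 and 2. Scgb1a1, the club cell secretoglobin, stood at 14.89 to 15.06 near the top of the scale and cannot show a difference. The part of airway content in the members' strain differences was not tested.

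Alveolar genes stood as follows. The type 2 cell genes, 11 tested, had a mean level of 13.79, 13.78 and 13.79 in BL6, 13.42, 13.60 and 13.28 in SV129 and 13.06, 13.11 and 13.32 in FVB/N, normoxic array first, with every BL6 array above the rest. That rested on Chil1: the mean of the other 10 was 13.81, 13.82 and 13.81 in BL6, 13.72, 13.88 and 13.55 in SV129 and 13.44, 13.41 and 13.63 in FVB/N, so BL6 and SV129 overlapped and FVB/N stayed below BL6. The median difference of the 11 was 0.32 for BL6 minus FVB/N, 0.05 for BL6 minus SV129 and -0.33 for FVB/N minus SV129. An unadjusted p below 0.05 was reached by 8, 3 and 8 of them. Between strains only Chil1, a chitinase-like protein, was called, higher in BL6 than in each other strain (3.69 ± 0.20 over FVB/N, adjusted p = 4.69e-05). With 1 array left out, or both with kidney transcripts, 1 gene of the list was still called higher in BL6 in both comparisons, except that without Normoxic FVB/N array 1 there were 2 higher and 1 lower against SV129, and 1 lower in FVB/N than in SV129. The type 1 cell genes, 10 tested, had medians of 0.10, -0.09 and -0.18 for the same differences, with no call. Their mean level overlapped between strains, from 12.61 to 13.17. The part of either cell type in the members' strain differences was not tested. Krt5, the sole basal cell gene bright enough of 5, was at 5.82 to 6.74.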

How the data were processed

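Total RNA of whole right lung was hybridised to Affymetrix arrays. The deposited values are linear intensities, 1 per probe set and array; from the values, the authors had scaled each array to a trimmed mean of 500 (2% left out at each end), and the program behind them was not given in the sources used here. Another 12 arrays, which the series text sets aside for technical difficulties, were not analysed here.

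Intensities were transformed as log2(signal + 16), quantile normalized, and the dimmest 40% of probe sets left out (27022 kept). Folds are on that scale and understate dim genes. limma 3.58.1 in R 4.3.3 fitted strain and pressure additively (5 residual degrees of freedom), and 6 groups (3) for effects within a strain. Tested on simulated data, 48 of 100 probe sets changed by 1 log2 unit and 98 of 100 changed by 2 were called between BL6 and FVB/N, with 12 false calls. For hypoxia over the 3 strains together 60 and 98 were called, with 16 false calls. For hypoxia within FVB/N only 13 and 72 were called, with 7 false calls, so most changes of 1 log2 unit within a strain were missed.

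The members and lists were chosen with earlier results of these data known. Named were members past the threshold, otherwise the 5 smallest p, 13 defining genes, the 2 smallest p of a list (all where few were called) and the 5 genes most like the score. Promoters were named for holding a motif.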

Additional observations from a re-analysis of the deposited data

Results flagged for a closer look

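Among the 6 hypoxic arrays, Tekt1 on Hypoxic FVB/N array 2 stood at 7.07, below the other 5 at 7.99 to 8.41, a gap of 0.686 of the whole range. On the same array Mlf1 stood at 7.41, below the others at 8.22 to 8.66, a gap of 0.647 of the range. Both were picked out because a single sample lay far from the rest of its group. In all, 37 measures were examined this way and 2 stood out. Chance alone picks about 1 in 20 where the 6 arrays are alike, but here the strains differed.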

How the results depend on the processing

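The count of 0 members called for hypoxia, in BL6, in SV129 and for the interaction, and the direction of the 3 strain differences in score, were the same in each setting run. Under those settings the score difference of BL6 over FVB/N ran from 0.62 to 0.90, of BL6 over SV129 from 0.23 to 0.44 and of FVB/N minus SV129 from -0.57 to -0.30. Array weights or the kidney level as a covariate gave 14 calls between BL6 and FVB/N, and averaging over a gene's probe sets gave 6, with 1 call for BL6 against SV129 and 1 for FVB/N against SV129. The 6 hypoxic arrays alone gave 1 call for BL6 against FVB/N and 1 for FVB/N against SV129. In FVB/N, hypoxia called 0 without the filter or without the intensity trend and 2 with array weights. With the dimmest 60% left out, 23 members remained, 15 of them with BL6 above FVB/N on every array and 8 with SV129 above FVB/N. Without both arrays with kidney transcripts, BL6 was above SV129 for 18. Counts of separated members under these settings were added after seeing the data. Except where given above, the share of all probe sets is not given for counts in this section. Those counts cannot be set against a background.

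With 1 array left out in turn, calls ran from 2 to 6 for BL6 against FVB/N, 0 to 2 for BL6 against SV129, 1 to 3 for FVB/N against SV129 and 0 to 2 for hypoxia in FVB/N, and members with BL6 above SV129 ran from 7 to 18. A lone sample is then assumed to vary like the other groups. Effects in FVB/N and the interaction could not be fitted without Normoxic FVB/N array 1. Depth has no meaning here; the number of arrays limits the precision.

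Array numbers are shared between groups. With array number as a replicate block, FVB/N against SV129 gave 1 call, and the other strain counts did not change. The labels do not say what a number marks. The deviations from the group means of hypoxic arrays of the same number correlated at -0.04 for BL6 and SV129, -0.03 for BL6 and FVB/N and -0.19 for FVB/N and SV129; each normoxic group has 1 array, which gives no deviation.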
